A study of Mus musculus with 65 samples.

Results

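The expression of 6 genes of serine synthesis and folate-dependent one-carbon metabolism, Phgdh, Psat1, Psph, Shmt1, Shmt2 and Mthfd2, was examined in 65 single cells of the mouse embryonic cortex. The genes were taken by name from a table of 11971 genes, and all 6 were found. They were proposed because earlier work on the same counts had shown them to vary between cells, so the values below describe these cells and no test was made on them. The study examined differences in transcription between neural progenitor cells. Cells came from C57BL/6J embryos at E13.5 with no further treatment or genotype, and all of them belong to 1 group. Cortical hemispheres were freed of the ganglionic eminences, the tissue of all embryos was pooled, and cells that excluded the dye propidium iodide were sorted singly by FACS into a full-length cDNA reaction. The titles divide the cells into sets 1, 2 and 3 of 31, 13 and 21 cells. The labels give no reason for this division, so it was treated as a possible batch.

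Cells that proliferate need serine and one-carbon units to make nucleotides, phospholipids and glutathione. Phgdh oxidises the glycolytic intermediate 3-phosphoglycerate, Psat1 transfers an amino group to the product, and Psph removes the phosphate to leave serine. Shmt1 in the cytosol and Shmt2 in mitochondria split serine into glycine and a one-carbon unit carried by folate, and Mthfd2 oxidises that unit in mitochondria for export as formate. Radial glia, the apical progenitors of the cortical wall, are known to make serine through Phgdh, whereas neurons take up much of theirs from surrounding cells. Sox2 is a transcription factor of these progenitors, Mcm2 is part of the helicase that is loaded onto DNA before replication, and Neurod6 is a transcription factor of young excitatory neurons.

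Read depth and markers of cell identity bear on all values below. A cell had a median of 14609426 reads (range 85338 to 32130629) and 6276 genes with a read (range 2403 to 7337), and 3 cells had under 1000000 reads. Counts are given as CPM, reads per 1000000 reads of the cell, and a gene was called expressed at 10 CPM or more. In the shallowest cell, a Sox2 cell, 1 read was worth 11.7 CPM, and its Phgdh value of 23.4 CPM was 2 reads. At 10 CPM Sox2 was expressed in 22 cells and Neurod6 in 16, no cell expressed both, and 27 expressed neither, so the label of neural progenitor is not borne out by Sox2 in most cells. These classes are ranges of 1 gene, not cell types. Median depth was 16551600 reads in Sox2 cells, 13317900 in Neurod6 cells and 14050000 in the remainder. The summed level of 4 erythroid markers had a median of 462 CPM in Sox2 cells, 36.7 CPM in Neurod6 cells and 382 CPM in the remaining cells. By title set that median was 0.885, 607 and 736 CPM in sets 1, 2 and 3, and its part in the results was not tested. At least 2 of 4 interneuron genes were expressed in 10 cells, of which 3 were Sox2 cells and 7 had neither marker. Of 5 microglia markers, 3 were in the table, with a summed level of at most 93.7 CPM in any cell. Mural and meningeal markers reached 19800 CPM in 1 cell with neither marker, and none of 4 endothelial markers was in the table.

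To set the members' promoters beside their expression, the 250 bases before each start site were read from RefSeq promoters of GRCm38.p6, matched by gene symbol. All 6 members matched, Psat1 with 2 start sites, and all lie on the minus strand. The deposited counts rest on mm9, so these coordinates do not belong to the count table. Phgdh (chr3:98339970-98340219) and the upstream start of Psat1 (chr19:15925060-15925309) are shown because they had the highest rank correlations with Sox2, and Shmt2 (chr10:127522445-127522694) because it had the lowest. Capitals mark CCAAT, the core of the NF-Y binding site, on either strand.
Phgdh: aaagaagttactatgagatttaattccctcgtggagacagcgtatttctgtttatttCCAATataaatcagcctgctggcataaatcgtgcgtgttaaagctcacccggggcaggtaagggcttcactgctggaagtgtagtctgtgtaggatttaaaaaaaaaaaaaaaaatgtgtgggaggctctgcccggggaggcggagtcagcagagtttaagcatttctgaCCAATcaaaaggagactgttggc
Psat1: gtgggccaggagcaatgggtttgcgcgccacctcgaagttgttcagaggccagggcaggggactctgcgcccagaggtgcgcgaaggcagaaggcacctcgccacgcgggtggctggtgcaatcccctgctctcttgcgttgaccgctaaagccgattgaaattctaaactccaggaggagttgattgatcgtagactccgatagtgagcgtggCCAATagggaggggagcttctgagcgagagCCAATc
Shmt2: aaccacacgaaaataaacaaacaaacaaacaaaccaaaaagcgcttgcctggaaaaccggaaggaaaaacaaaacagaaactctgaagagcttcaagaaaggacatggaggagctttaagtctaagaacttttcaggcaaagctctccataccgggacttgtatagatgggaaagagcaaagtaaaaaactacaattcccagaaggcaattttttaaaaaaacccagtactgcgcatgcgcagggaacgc
CCAAT began 193 and 23 bases before the Phgdh start (positions -193 and -23) and at -36 and -6 for the upstream Psat1 start, and it was not in the Shmt2 window. The motif was also found 2 times for Psph, 3 times for Mthfd2 and 1 time for Shmt1, but not at the downstream Psat1 start. Among 32851 promoters of this length, 33.8% held it, and it was chosen after the sequences had been seen. Neither TGATGNAA, a response element of C/EBP and ATF factors including Atf4 (3.45% of promoters), nor the E-box CACGTG (6.02%) occurred on either strand in any of the 7 member promoters. These are matches of letters in the window shown and no measure of binding.

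Among the serine synthesis genes, Phgdh and Psat1 were each expressed in about 1 cell of 3, at high levels where present, and Psph in few. Phgdh was expressed in 23 of 65 cells (35.4%, exact Clopper-Pearson 95% interval 23.9 to 48.2%), from 23.4 to 2115 CPM with a median of 400.9 CPM. Over all cells it averaged 196 ± 409 CPM (SD across cells). Psat1 was expressed in 22 cells (33.8%, 22.6 to 46.6%), from 28.5 to 2197 CPM with a median of 322.5 CPM, and averaged 182 ± 395 CPM. Both genes were therefore close to absent or abundant in a given cell, with SDs over 2 times the mean. The markers showed a like split, with Sox2 below 1 CPM in 41 cells, Mcm2 in 36 and Neurod6 in 47. How common such a split was over all genes was not measured. Psph was expressed in 6 cells (9.23%, 3.46 to 19.02%), at 16.5, 224, 303, 311, 356 and 837 CPM. All 3 serine synthesis genes were expressed together in 4 cells, all in title set 1. The intervals cover counting error only, since reads of this protocol carry no molecular identifiers and the cells come from pooled embryos. The labels do not say whether the title sets share a preparation.

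Among the folate genes Shmt2 was found in the most cells and Shmt1 in the fewest. Shmt2 was expressed in 20 cells (30.8%, 19.9 to 43.4%), from 10.2 to 2231 CPM with a median of 171 CPM. Mthfd2 was expressed in 15 cells (23.1%, 13.53 to 35.2%), from 17.1 to 905 CPM with a median of 199.5 CPM. Shmt1, the cytosolic counterpart of Shmt2, was expressed in 9 cells (13.8%, 6.53 to 24.7%), from 54.3 to 1063 CPM with a median of 268 CPM. Average levels were 87.6 ± 295 CPM for Shmt2, 63 ± 152 CPM for Mthfd2 and 51.1 ± 170 CPM for Shmt1. A single cell held 39.2% of the summed Shmt2 CPM. At least 1 read of a member was more common than expression at 10 CPM, in 47 cells for Phgdh and for Psat1, 35 for Shmt2 and for Mthfd2, 29 for Psph and 24 for Shmt1. The highest value below 10 CPM and the lowest above it lay apart for every member, as they also did for Sox2, Mcm2 and Neurod6. They were 8.76 and 23.4 CPM for Phgdh, 6.46 and 28.5 CPM for Psat1, 2.12 and 16.5 CPM for Psph, 3.29 and 54.3 CPM for Shmt1, 2.33 and 10.2 CPM for Shmt2 and 6.82 and 17.1 CPM for Mthfd2.

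Full-length libraries yield more reads from longer transcripts, so levels were compared between members only per kb of exon (GENCODE vM21). The exons of all annotated transcripts of a gene were merged for this, so the length can exceed that of a single transcript. The average level was 78.9 CPM per kb for Phgdh, 42.7 for Psat1, 28.2 for Shmt2, 18.1 for Mthfd2, 13.2 for Shmt1 and 7.31 for Psph. Within expressing cells the order was narrower, with medians of 161 CPM per kb for Phgdh, 75.8 for Psat1, 70.9 for Psph, 69.0 for Shmt1, 57.2 for Mthfd2 and 55.02 for Shmt2. Psph and Shmt1 thus stood low on average because few cells expressed them, and the medians of the 5 members other than Phgdh lay between 55.02 and 75.8 CPM per kb. The libraries do not keep strand, and 10.4% of the exon length of Psph overlaps Cct6a on the other strand, 4.74% of Shmt1 overlaps Smcr8 and 1.03% of Shmt2 overlaps Ndufa4l2. A named pseudogene, Phgdh-ps1, could share reads with Phgdh.

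**Figure D1:**
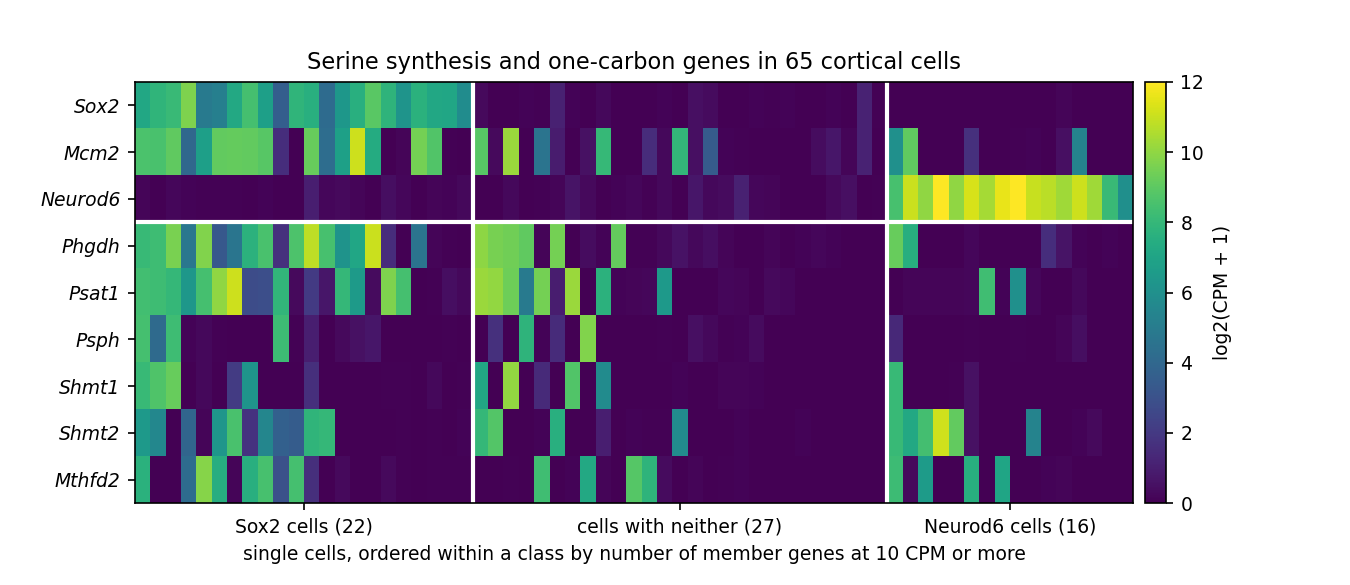
Each column is 1 of 65 cells and each row a gene, coloured by log2(CPM + 1). Cells are grouped by Sox2, neither marker and Neurod6, and ordered by the number of members at 10 CPM or more. Members fill the left of each class in blocks of high values against near-zero values, and the blocks are widest for Phgdh and Psat1 in the Sox2 cells.

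The members were often expressed in the same cells. No member was expressed in 22 cells, 1 in 16, 2 in 11, 3 in 10, 4 in 4, 5 in 1 and all 6 in 1 (cell 15 of title set 1). Thus 43 of 65 cells expressed any member (66.2%, exact interval 53.4 to 77.4%), and 16 expressed 3 or more (24.6%, 14.8 to 36.9%). Title set 1 held 12 of these cells among its 31, set 2 held 2 among 13 and set 3 held 2 among 21, so cells with several members were drawn mainly from set 1. Phgdh and Psat1 were expressed together in 12 cells, where the product of their shares gives 7.78. Of these 12 cells, 8 were Sox2 cells, 4 had neither marker and none was a Neurod6 cell, and 10 expressed Mcm2. The product over all cells does not account for class. Of 22 Sox2 cells 15 expressed Phgdh and 12 Psat1, and of 16 Neurod6 cells 2 expressed each. These counts do not show that the 2 genes met more often within a class than their shares give. By title set the cells with both genes numbered 9, 3 and 0.

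Serine and folate genes overlapped as well. Phgdh and Shmt2 were expressed together in 13 cells (7.08 from the product of shares), Phgdh and Shmt1 in 7 (3.18), Psat1 and Shmt1 in 7 (3.05), and Shmt2 and Mthfd2 in 7 (4.62). The cytosolic and mitochondrial hydroxymethyltransferases Shmt1 and Shmt2 met in 4 cells (2.77). Of 15 pairs, 14 occurred together in more cells than the product of their shares, as did 55.6% of all gene pairs, the exception being Psat1 with Mthfd2 in 5 cells (5.08). Taking the pathway by its arms, 34 cells expressed a serine synthesis gene, 32 a folate gene and 23 both. In Sox2 cells 19 of 22 had a serine synthesis gene, 13 a folate gene and 13 both arms, and none had a folate gene alone. Among Neurod6 cells 4 of 16 had a serine synthesis gene and 8 a folate gene, with 2 having both arms and 6 a folate gene alone. No product of shares was taken within a class, for the pairs or for the arms. These counts therefore do not show whether the arms met more often than their shares give, or the pairs within a class.

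Spearman correlations across the 65 cells, which come from pooled embryos, share a library method and differ in depth, were then taken for each pair. All 15 member pairs had rho above 0, as did 59.1% of all pairs among genes of mean CPM 10 or more. A rank correlation of 0.3 or more was found for 3 pairs, against 2.92% of all gene pairs. These were Phgdh with Psph (0.47), Psat1 with Shmt1 (0.41) and Phgdh with Psat1 (0.37). For 12 of the 15 pairs rho was positive in every title set, as for 15.3% of all gene pairs. These signs also draw on values below 10 CPM. In set 3, 0 cells expressed both Phgdh and Psat1 (rho 0.27). In sets 2 and 3, 0 cells expressed both Phgdh and Psph (0.36 in each). Shmt1 had a read in only 1 of 13 cells of set 2. The median over the pairs was 0.25 and that of all gene pairs 0.03. It was 0.14 when values below 10 CPM were set to 0. Phgdh with Psat1 was then 0.27 and Phgdh with Psph 0.20, while 4 pairs were at 0.3 or more, Psat1 with Shmt1 (0.41), Phgdh with Shmt2 (0.39), Phgdh with Shmt1 (0.38) and Psph with Shmt1 (0.35). The mean log2(CPM + 1) of the 6 members had a rho of 0.25 with total reads and 0.23 with genes detected. Within title sets 1, 2 and 3 it was 0.43, 0.69 and 0.18 for total reads and 0.43, 0.39 and 0.01 for genes detected. The part of depth in the members' correlations within sets was not tested.

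Of the members, Phgdh had the highest rho with Sox2 and with Mcm2 over all cells. In the 22 Sox2 cells Phgdh ranged from 0 to 2115 CPM with a median of 105 CPM, and 15 cells (68.2%, exact interval 45.1 to 86.1%) expressed it. In the 16 Neurod6 cells it ranged from 0 to 594 CPM with a median of 0 CPM, and 2 cells (12.5%, 1.55 to 38.3%) expressed it. The 27 cells with neither marker ranged from 0 to 983 CPM, with 6 expressing (22.2%, 8.62 to 42.3%). The classes overlapped, since cells at or near 0 CPM were found in each, and Sox2 cells made up 15 of the 23 cells that expressed Phgdh. The mean was 352.5 CPM in Sox2 cells and 48.9 CPM in Neurod6 cells, a 7.21-fold difference, or 21.5-fold without the highest cell of each class.

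Psat1 showed a like distribution. It was expressed in 12 of 22 Sox2 cells (54.5%, 32.2 to 75.6%; median 86.5 CPM, range 0 to 2197), 2 of 16 Neurod6 cells (12.5%, 1.55 to 38.3%; median 0.115 CPM, range 0 to 318) and 8 of 27 others (29.6%, 13.8 to 50.2%; median 0.128 CPM, range 0 to 1168). The mean was 11.98-fold higher in Sox2 than in Neurod6 cells (287 against 23.99 CPM), and 44.5-fold without the highest cell of each class, as 1 Neurod6 cell held 82.7% of that class's Psat1 CPM. Psph was expressed in 4 Sox2 cells, 2 with neither marker and no Neurod6 cell. A count of 0 of 16 cells allows a share of up to 18.8% (3 cells of 16), or 20.6% by the exact interval. At this number of cells an absence therefore cannot be shown. The Neurod6 cells averaged 0.139 CPM of Psph, too little for a fold.

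The folate genes were expressed in both classes. Shmt1 was expressed in 4 of 22 Sox2 cells and 1 of 16 Neurod6 cells (mean 61.6 against 16.8 CPM, 3.68-fold), and in 4 of 27 others (62.9 CPM). The Neurod6 mean of Shmt1 lay to 99.8% in that 1 cell. Mthfd2 was expressed in 7 of 22 and 4 of 16 (100.8 against 44.5 CPM, 2.26-fold), and its difference turned to -0.062 on the log2 scale without title set 1. It was under 2-fold as a difference of mean log2(CPM + 1) (0.82) and as a log2 fold with 50 CPM to enter a class (0.49). Shmt2 was expressed in 10 of 22 Sox2 cells and 6 of 16 Neurod6 cells, yet its mean was 4.27-fold higher in Neurod6 cells (225 against 52.6 CPM). The 6 Neurod6 cells had 40.9, 151, 273, 343, 555 and 2231 CPM of Shmt2. Without the highest of these, cell 27 of title set 1, and the highest Sox2 cell, the ratio of Sox2 to Neurod6 cells was 0.406. As a difference of mean log2(CPM + 1) it was -0.35, short of 2-fold. In share of cells the order was the reverse, and the intervals of 24.4 to 67.8% and 15.2 to 64.6% overlapped over most of their length.

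Set against all genes, 5 of 6 members were at least 2-fold higher in Sox2 cells and 1 at least 2-fold lower. By that rule 32.3% of 8377 genes of mean CPM 10 or more were higher and 24.1% lower. The 5 count Psph, although its Neurod6 mean of 0.139 CPM was too little for a fold. A larger share of Sox2 than of Neurod6 cells expressed each of the 6 members, as it did 53.9% of all genes. The median log2 fold of the members, Psph included, was 2.36 and that of all genes 0.21. Folds of this size are common with so few cells. Much of the Neurod6 signal of some members came from 1 cell. Cell 26 of title set 1, a Neurod6 cell, expressed 4 members. It held 76.0% of the summed Phgdh CPM and 99.8% of the summed Shmt1 CPM of its class. This cell had 63.1 CPM of Mcm2 and 509 CPM of Eomes, a transcription factor of intermediate progenitors. Of the 16 Neurod6 cells, 10 expressed Eomes (class mean 328 CPM) and 3 expressed Mcm2, so Eomes did not set this cell apart.

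**Figure D2:**
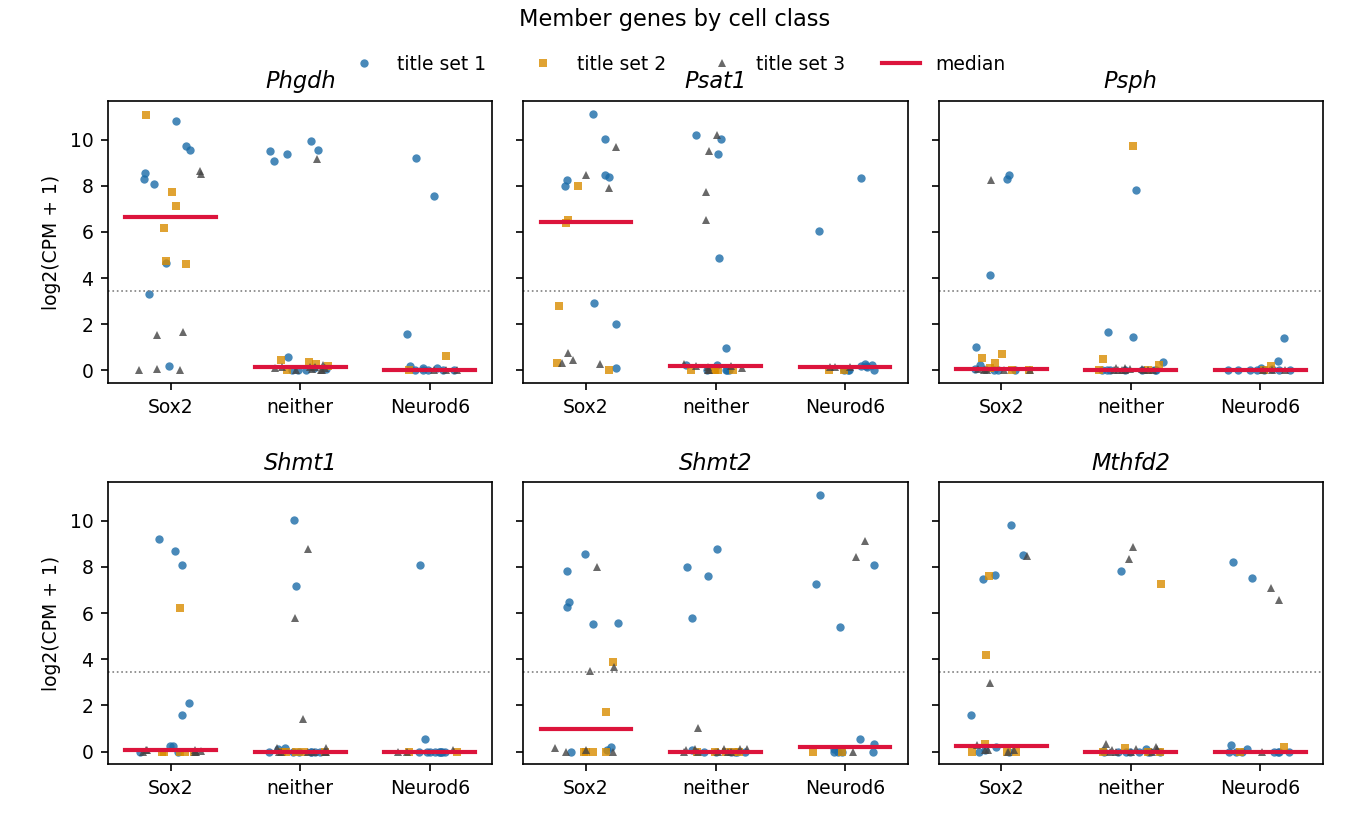
Each point is the log2(CPM + 1) of 1 member in 1 cell, by class (22 Sox2 cells, 27 with neither marker, 16 Neurod6 cells), with title sets as shapes, the red line at the median and the dotted line at 10 CPM. The medians of Phgdh (105 CPM) and Psat1 (86.5 CPM) in Sox2 cells lie above the dotted line, and all other medians lie below it.

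The count of members per cell was also set beside the classes. Sox2 cells expressed a median of 2.5 members, and 11 of 22 expressed 3 or more (50%, exact interval 28.2 to 71.8%). Neurod6 cells expressed a median of 1, and 1 of 16 expressed 3 or more (6.25%, 0.158 to 30.2%). Among cells with neither marker 4 of 27 did (14.8%, 4.19 to 33.7%). Those 27 cells were mixed by other markers. The 13 without a member expressed a median of 2 of 8 apical progenitor genes other than Sox2, 2 of 10 G1/S genes and 5 of 5 neuron genes. The 10 with 1 or 2 members expressed medians of 3.5, 6 and 2 of these genes, and the 4 with 3 or more members 4.5, 7 and 2. Sox2 cells had medians of 4.5, 7 and 2. The 4 cells with several members but neither marker thus had the same medians as the Sox2 cells, and all 4 were in title set 1. They were mixed as well, since 2 expressed Mcm2 and 2 did not. Their G1/S genes ranged from 2 to 9, against 0 to 10 in Sox2 cells. At least 2 interneuron genes were expressed in 2 of the 4, against 3 of 22 Sox2 cells.

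Mcm2 was expressed in 25 cells, of which 16 also expressed Sox2 (8.46 from the product of shares) and 3 expressed Neurod6. By title set these were 15 of 31, 7 of 13 and 3 of 21 cells. The contrasts below were pooled over title sets, and the part of title set in them was not tested. Phgdh was expressed in 18 of 25 cells with Mcm2 and 5 of 40 without. In sets 1, 2 and 3 it was expressed in 11 of 15, 6 of 7 and 1 of 3 cells with Mcm2. Without Mcm2 it was expressed in 3 of 16, 0 of 6 and 2 of 18. Its mean was 5.28-fold higher with Mcm2 (391 against 74.1 CPM). Shmt1 was expressed in 8 of 25 and 1 of 40, a 10.6-fold difference in mean (115 against 10.9 CPM) in which 1 cell held 99.8% of the Shmt1 CPM without Mcm2. Psat1 followed with 13 and 9 cells (2.97-fold), Mthfd2 with 8 and 7 (2.46-fold), Shmt2 with 12 and 8 (0.784-fold) and Psph with 3 and 3 (0.804-fold). For 4 of 6 members the mean was at least 2-fold higher with Mcm2, against 21.6% of all genes, and for none at least 2-fold lower, against 22.3%. By share of cells all 6 were more frequent with Mcm2, as were 64.3% of all genes. The mean of Shmt2 without Mcm2 included the Neurod6 cell of 2231 CPM, and without the highest cell on each side it was 1.52-fold higher with Mcm2.

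Sox2 and Mcm2 were then considered jointly. At least 3 members were expressed in 9 of 16 cells with both markers, 2 of 6 with Sox2 alone, 3 of 9 with Mcm2 alone and 2 of 34 with neither of these markers. Phgdh was expressed in 14 of 16, 1 of 6, 4 of 9 and 4 of 34 of these cells. Psat1 was expressed in 9 of 16, 3 of 6, 4 of 9 and 6 of 34, a smaller step between Sox2 cells with and without Mcm2. All 9 cells expressing Shmt1 except 1 had Mcm2, 4 with Sox2 and 4 without. Between Sox2 cells with and without Mcm2, 3 of 6 members were at least 2-fold higher, against 48.3% of all genes, and none lower, against 20.4%. All 6 Sox2 cells without Mcm2 were in title set 3, and 15 of the 16 with Mcm2 were in sets 1 and 2. Within Sox2 cells, Mcm2 and title set therefore cannot be told apart. Within title set 1, at least 3 members were found in 10 of 15 cells with Mcm2 and 2 of 16 without, in set 2 in 2 of 7 and 0 of 6, and in set 3 in 0 of 3 and 2 of 18. At 3 or more members the direction thus held in sets 1 and 2 and was opposite in set 3, where only 3 cells expressed Mcm2. Those 3 cells each expressed 2 members, and at 2 or more members set 3 had 3 of 3 cells with Mcm2 and 4 of 18 without.

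**Figure D3:**
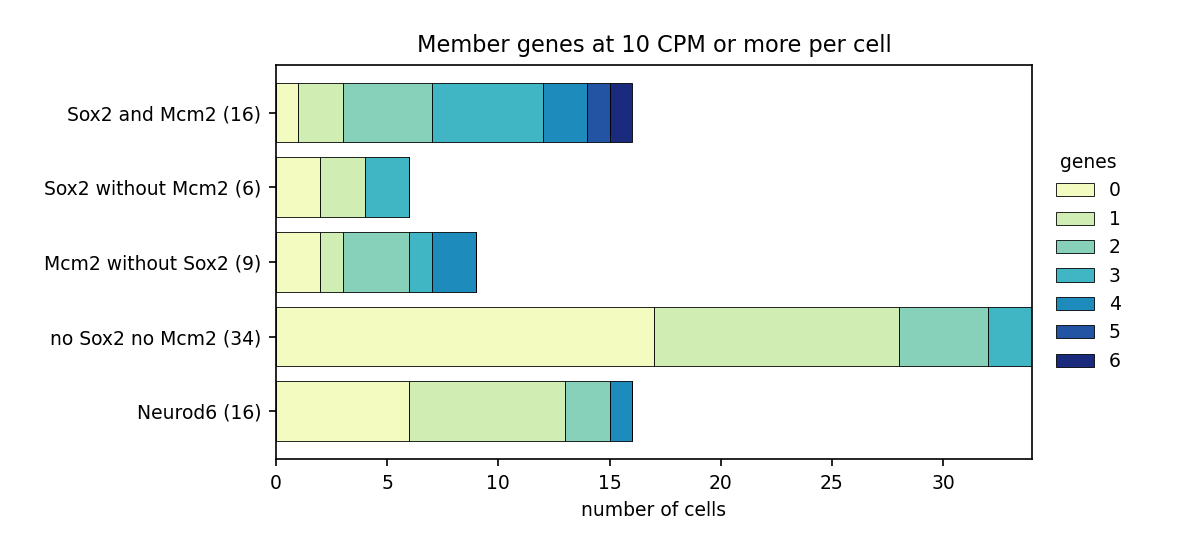
Bars give the number of cells, coloured by how many of the 6 members were at 10 CPM or more, for cells parted by Sox2 and Mcm2; the Neurod6 cells in the lowest bar are also counted in the bars above it. At least 3 members were found in 9 of 16 cells with both markers and in 2 of 34 with neither.

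Rank correlations with the 3 markers were taken over all cells. For Phgdh, rho was 0.47 with Sox2, 0.63 with Mcm2 and -0.39 with Neurod6. In title sets 1, 2 and 3 it was 0.51, 0.77 and 0.29 for Sox2 and 0.65, 0.81 and 0.32 for Mcm2. In set 3 only 3 of 21 cells expressed Mcm2, 3 expressed Phgdh and 1 expressed both. The set 3 value for Mcm2 thus draws largely on values below 10 CPM. Over all cells the rho of Phgdh with Sox2 was higher than that of 99.7% of genes and with Mcm2 higher than that of 99.9%. Because Sox2 and Mcm2 were correlated with each other (0.47), each was also taken with the ranks of the other held fixed. Phgdh with Sox2 was then 0.25 and with Mcm2 0.52. Psat1 had a rho of 0.44 with Sox2 and 0.34 with Mcm2, and 0.33 and 0.16 with the other marker held fixed. This order depended on the measure, since Psat1 had 0.28 with Sox2 and 0.33 with Mcm2 when values below 10 CPM were set to 0, and Pearson's r of log2(CPM + 1) was 0.33 and 0.39. Its rho with Neurod6 was -0.25.

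For the other members with Sox2, rho was 0.30 for Psph, 0.23 for Shmt1, 0.18 for Mthfd2 and 0.05 for Shmt2. With Mcm2 it was 0.38 for Shmt1, 0.30 for Psph, 0.28 for Shmt2 and 0.23 for Mthfd2. With Neurod6 all 4 lay between -0.11 and 0.04. The rank correlation was above 0 for all 6 members with Sox2, as for 58.5% of all genes, and with Mcm2, as for 63.7%. A rho of 0.3 or more with Sox2 was found for Phgdh and Psat1, against 5.35% of all genes (Psat1 not when values below 10 CPM were set to 0), and with Mcm2 for Phgdh, Psat1 and Shmt1, against 9.44%. A rho of -0.3 or less with Neurod6 was found for Phgdh alone, against 2.17%, and was -0.28 when values below 10 CPM were set to 0. The mean over the members had a rho of 0.37 with Sox2, 0.53 with Mcm2 and -0.22 with Neurod6, and 0.16 with Sox2 once Mcm2 was held fixed and 0.43 with Mcm2 once Sox2 was.

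**Figure D4:**
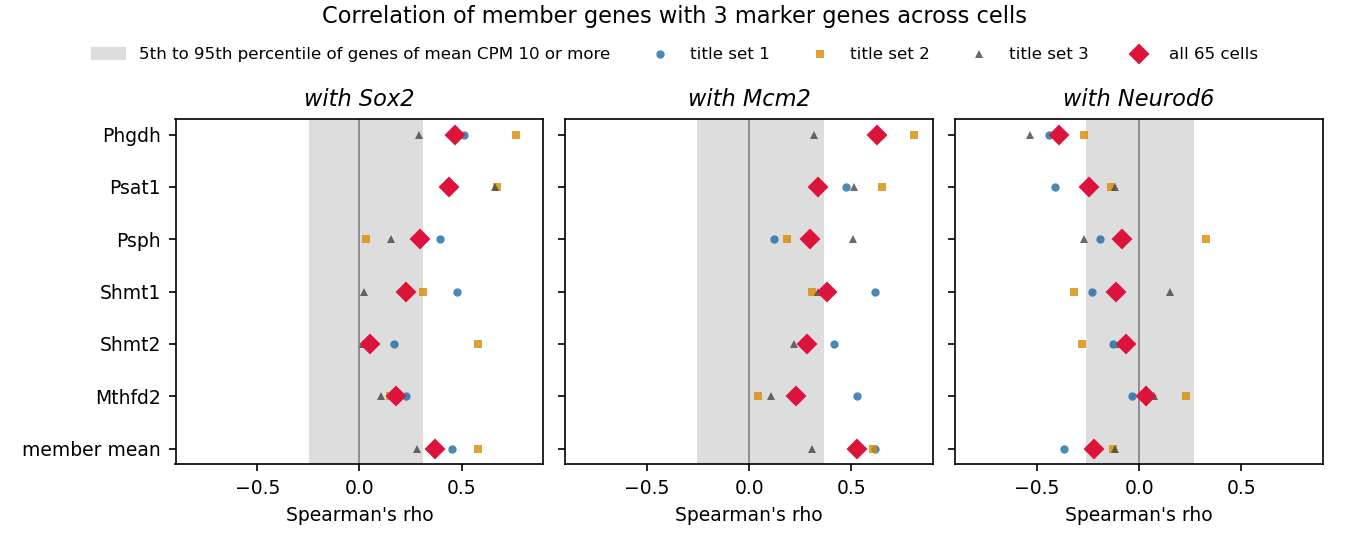
Spearman's rho of each member and of the members' mean with Sox2, Mcm2 and Neurod6 (x axis), over all 65 cells (diamonds) and within each title set (small symbols); the grey band spans the 5th to 95th percentile of 8377 genes. Phgdh lies outside the band in all 3 panels, at 0.47, 0.63 and -0.39, and Shmt2 and Mthfd2 lie inside it in each by the value over all cells.

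The other genes of the pathway were taken from lists of known function, 41 of which had a mean of 10 CPM or more. Between Sox2 and Neurod6 cells 15 of the 41 were at least 2-fold higher in Sox2 cells, 5 at least 2-fold lower and 21 within 2-fold, against 32.3% higher and 24.1% lower among all genes. Means under 10 CPM in both classes were found for 4 of the called genes. Their median log2 fold was 0.46 beside 0.21 for all genes. Both cytosolic folate genes compared were higher, Tyms, which makes thymidylate (326 against 75.9 CPM), and the trifunctional Mthfd1 (51.2 against 25.01 CPM). Of 6 purine synthesis genes, which consume one-carbon units, 3 were higher and 3 within 2-fold. The higher genes were Paics (868 against 191 CPM), Gart (104 against 23.1 CPM) and Ppat (58.1 against 1.55 CPM).

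Of 7 mitochondrial folate and glycine cleavage genes 1 was higher, 2 were lower and 4 lay within 2-fold. Gldc of the glycine cleavage system had 11.8 CPM in Sox2 and 49.9 CPM in Neurod6 cells, with 1 expressing cell in each, and the mitochondrial serine carrier Sfxn1 had 91.6 and 194 CPM, with 13 of 22 and 7 of 16 cells expressing it. The mitochondrial folate carrier Slc25a32 was counted as higher from 1 Sox2 cell. In the methionine cycle and transsulfuration 4 of 6 genes were higher, among them Ahcy (294 against 35.8 CPM) and Mat2a (534 against 219 CPM), and the other 2, Cbs and Cth, had means under 10 CPM in both classes. Of 6 amino acid transporters 3 were higher, Slc1a4 (34.95 against 4.80 CPM), Slc7a5 (44.2 against 3.49 CPM) and Slc1a5 (means of 1.77 and 0 CPM). Among 5 genes that use serine, Ptdss1 was higher (4 against 0 expressing cells) and Sptlc1 lower (3.16 against 31.1 CPM), although 3 Sox2 cells and 1 Neurod6 cell expressed Sptlc1.

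Genes of the amino acid response, Myc and Mycn were also listed, among them regulators known to raise serine synthesis genes in other settings. Of 7 genes of the amino acid response, Cebpg was higher in Sox2 cells (44.9 against 20.5 CPM, with 4 of 22 and 4 of 16 cells expressing it), Ddit3 was lower (13.97 against 65.2 CPM) and 5 lay within 2-fold. Atf4 itself was expressed in 13 of 22 Sox2 cells and 13 of 16 Neurod6 cells (169 against 231 CPM) and had a rho of 0.09 with the members' mean. Myc was expressed in 0 of 22 Sox2 and 4 of 16 Neurod6 cells, and Mycn in 10 and 5. The rho with the members' mean was -0.35 for Myc and 0.31 for Mycn.

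The genes most like the members were ranked by rho with the members' mean among 8371 genes, keeping those with 1 sign in every title set. The highest were Rnaseh2b (0.67), a subunit of ribonuclease H2, Exosc2 (0.65) of the RNA exosome, Hn1l (0.62), Hmgb2 (0.62), a chromatin protein of dividing cells, Ran (0.61), the GTPase of nuclear transport, Impdh2 (0.61), which makes guanine nucleotides, Sfrp1 (0.60), a secreted Wnt modulator of progenitors, and Pmf1 (0.58), a kinetochore protein. The lowest were Tmsb10 (-0.60), Dcx (-0.57), Dpysl3 (-0.55) and Tuba1a (-0.54), all known from migrating or differentiating neurons. For single members, Phgdh was most like Pmf1 (0.72) and Mcm2 (0.63), and Psat1 most like Rnaseh2b (0.59) and Hn1l (0.58). Shmt1 was most like Tipin (0.53) and Eme1 (0.52), Shmt2 like Cdk5rap2 (0.58) and Psmc2 (0.54), Mthfd2 like Prim2 (0.54) and Fh1 (0.53), and Psph like Ppp5c (0.62) and Megf10 (0.56). Being the extremes of a ranking over 65 cells, these values lie higher than they would for genes named in advance.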

How the data were processed

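Single-cell RNA-seq was made from 65 cells with a SMARTer full-length kit on an Illumina sequencer, per the labels' protocols. Per the submitters' processing notes the tools were TopHat2 and HTSeq and the build mm9, with neither versions nor roles, and the annotation was not given in the sources used here. The deposited table holds raw read counts per gene and cell, without molecular identifiers or strand, for 11971 genes. No column of values was left unused (0), and no pair of cells held identical values (0).

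Counts were divided by each cell's total to give CPM (Python 3.11.15, pandas 2.3.3, scipy 1.17.1). A gene was expressed at 10 CPM or more, and the 8377 genes of mean CPM 10 or more gave the background. Classes were cells with Sox2, with Neurod6 or with neither at that level. Means past 2-fold, shares of cells and Spearman's rho were computed, and logs are log2(CPM + 1). Depth per cell was 85338 to 32130629 reads. Exact Clopper-Pearson 95% intervals cover counting error only. The animals were pooled and none is named, so the cells are 1 sample and carry no p-values, standard errors or tests. Doublets were not called, since cells were sorted singly. The scripts were tested on simulated data. Exon lengths came from GENCODE vM21 and promoters from RefSeq.

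The members and the 21 gene lists were chosen with earlier results of these data known. Some listed genes are not reported here. The genes named are the members, Sox2, Mcm2 and Neurod6. Of each pathway list they are every gene past 2-fold where 5 or fewer were, and otherwise the 4 with the largest fold. They also include the 8 genes most like the members' mean, the 4 least like it and the 2 most like each member, with 1 sign in every title set. Atf4, Mycn and Eomes were named after their values were seen. Alternatives were other levels of expression, thinning to 1000000 reads, scran 1.30.0 size factors (R 4.3.3), other pseudocounts, each title set alone or left out, and cells left out.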

Additional observations from a re-analysis of the deposited data

How the results depend on the processing

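Of 12 summary results, 110 values under other settings stayed within the tolerance set (counts within 1.5 times, log2 folds on the same side of 2-fold, correlations within 0.1, shares within their interval) and 18 did not; for 30 single-gene results 301 did, 94 did not and 1 reversed. The members' median log2 fold of Sox2 over Neurod6 cells ranged from 1.23 to 9.38 (2.36 over all), that of Sox2 cells with over without Mcm2 reached 6.93, and pathway genes higher in Sox2 cells numbered 12 to 22 (15 over all), the 22 with no filter on low values. The share of cells with any member rose from 66.2% to 93.8% when 1 read counted as expression, and that with 3 or more members from 24.6% to 67.7%. The latter was 38.7% within title set 1, 9.52% within set 3 and 11.8% without set 1. For the members' mean, rho with Sox2 was 0.58 within set 2 and 0.48 without the interneuron-marker cells (0.37 over all), rho with Mcm2 0.31 within set 3 and 0.36 without set 1 (0.53 over all), and rho with Neurod6 -0.37 within set 1, -0.12 within set 3 and -0.12 without set 1 (-0.22 over all). The median rho of member pairs, 0.25, was 0.36 within set 2, 0.35 without set 3, and 0.14 with values below 10 CPM set to 0, a setting chosen after seeing the data. Setting each gene's highest cell to the next raised the members at least 2-fold higher in Sox2 cells with than without Mcm2 from 3 to 5. Without set 1 the members' median log2 fold was 0.81 in place of 1.86, pathway genes lower in Sox2 than in Neurod6 cells numbered 9 in place of 5, and the log2 fold of Mthfd2 between those classes turned from 1.18 to -0.062. The cause was not tested. Across settings 4 to 5 members were at least 2-fold higher in Sox2 than in Neurod6 cells. No paired analysis was possible because all cells belong to 1 group. Precision is limited by the number of cells, 16 to 27 in a class, and by depth in the 3 cells of under 1000000 reads.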

Other observations

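Other gene groups were set beside the members' mean as average log2(CPM + 1) scores. The values describe 65 cells that come from pooled embryos and share a library method. The rank correlation (Spearman) was 0.58 for apical progenitor markers other than Sox2 (0.77, 0.37 and 0.30 in title sets 1, 2 and 3), 0.62 for G1/S genes other than Mcm2 (0.67, 0.76 and 0.32) and 0.58 for G2/M genes. Over all cells the apical and G1/S scores, means of 7 and 9 genes, thus each had a higher rho with the members than Sox2 (0.37) or Mcm2 (0.53) alone had. Within set 2 the apical score (0.37) was below Sox2 (0.58) and Mcm2 (0.61), and within set 3 (0.30) it was near Mcm2 (0.31). Intermediate progenitor markers had a rho of 0.00, general neuron markers -0.49 and excitatory neuron markers other than Neurod6 -0.40. The single intermediate progenitor genes differed in sign, with Btg2 at 0.29, Neurog2 at 0.09, Gadd45g at -0.002, Eomes at -0.15 and Neurod1 at -0.35. Purine synthesis, which uses one-carbon units, had a rho of 0.59 (0.67, 0.72 and 0.37). The methionine cycle and transsulfuration genes had 0.20 (0.26, 0.31 and 0.02), and the 2 cytosolic folate genes 0.61 (0.69, 0.49 and 0.29). Mitochondrial folate and glycine cleavage genes had 0.31 with the opposite sign in set 2 (0.52, -0.35 and 0.48). Erythroid markers had a rho of -0.29 over all cells and -0.62 within set 3.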
